A study of Mus musculus with 6 samples.

Results

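H/ACA small nucleolar RNAs and small Cajal body RNAs are short noncoding RNAs of the nucleus. The genes described are those whose symbol starts with Snora or Scarna and that a probe row of the array names alone; where several rows named a gene, the row with the highest mean over all arrays was kept. This gave 31 genes, 26 of them Snora and 5 Scarna, of 22180 genes that had a row of their own. They came from 34 of the 41345 probe rows. A further 13 rows named such a gene together with another gene and were not used.

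Mouse tissue that the labels call whole hippocampus was profiled with 6 Affymetrix arrays, 3 for each group. All mice were C57BL/6J males, an inbred strain. The ethanol group was injected under the skin with ethanol (dose 2.5 g/kg, vehicle 0.15 M NaCl) and the control group with saline. Injections came in pairs 2 hours apart, on days 4 and 7 after birth, and littermates were matched for sex and weight. One pool of 3 mice went onto each array, so the spread between arrays is a spread between pools and not between animals. The labels give the age at sampling as 21 days in one place and as day 70 in another, and the comparison of the groups addressed what early exposure left behind at that later age.

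H/ACA RNAs fold into hairpins joined by the H box and closed by an ACA tail. They sit in a complex with dyskerin (Dkc1), Nop10, Nhp2 and Gar1, and their loops pair with ribosomal RNA to place pseudouridines. Small Cajal body RNAs do the same work, or guide methylation, on the small nuclear RNAs of the spliceosome, and they gather in the Cajal body. In mammals most of these RNAs lie in introns of a host gene and are trimmed out of the spliced intron. An array row on an intron cannot tell the finished small RNA from unspliced RNA of its host. Nor can bulk RNA tell fewer cells of a type from less RNA per cell.

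All 31 genes had an entry in the RefSeq table of mouse build GRCm38, and 30 lay within the span of at least 1 longer gene. That table gives no strand and no exons, so a host here is any longer gene whose span holds the small RNA gene. A ribosomal protein gene was the host of 6 of them, a translation factor or Tpt1, a growth-related protein, of 4, a noncoding gene of 7 and another coding gene of 12. These kinds were read from the symbols of the hosts, so Gm41774, host of Scarna17, counts as noncoding by its name alone. Snora78 lay within both Rps2 and Snhg9, and Scarna2 lay within no gene of the table. The noncoding hosts Snhg12 and Snhg3 are neighbours on chromosome 4 and hold 5 of the genes between them. Snhg12, at chr4:132308678-132311024, holds Snora16a, Snora44 and Snora61, and Snhg3, at chr4:132351933-132353686, holds Snora73a and Snora73b, with 40908 bases between the hosts.

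The promoter windows of these 2 hosts are shown because the RNAs within each host come from 1 transcript, so that the start of that transcript is common to them. Each window runs from 250 bases before to 50 after the RefSeq start and is written 5′ to 3′ on the gene's own strand. Capitals mark CCGGAAG, the core of sites bound by ETS family factors, or its reverse complement CTTCCGG.
Snhg3 (GRCm38, chr4:132353637-132353936, minus strand): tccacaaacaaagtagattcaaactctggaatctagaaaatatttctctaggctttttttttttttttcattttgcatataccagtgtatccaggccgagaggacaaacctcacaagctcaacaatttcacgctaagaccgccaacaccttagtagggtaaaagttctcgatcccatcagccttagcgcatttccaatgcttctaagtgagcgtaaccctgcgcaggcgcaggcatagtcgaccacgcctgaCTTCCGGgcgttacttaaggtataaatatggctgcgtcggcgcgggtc
Snhg12 (GRCm38, chr4:132308428-132308727, plus strand): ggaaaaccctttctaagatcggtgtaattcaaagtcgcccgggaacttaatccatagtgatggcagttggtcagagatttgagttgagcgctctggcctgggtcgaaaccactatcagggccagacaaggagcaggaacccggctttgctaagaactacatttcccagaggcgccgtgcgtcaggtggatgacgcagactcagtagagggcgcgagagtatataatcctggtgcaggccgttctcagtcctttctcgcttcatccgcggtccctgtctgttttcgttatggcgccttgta

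The Snhg3 window held the motif once, beginning at base 3 counted from the RefSeq start, and the Snhg12 window did not hold these letters. Searched on both strands, the motif stood in windows of 9 of the 22 hosts that had one, among them Rpsa, Rpl39, Eef1b2, Tcp1 and Haus6, and in 8.86% of all 32851 windows of the same length. TATAAA, the core of the TATA box, stood in windows of 6 of those hosts, Snhg3 included, and in 13.6% of all windows. These motifs were chosen after the windows had been read. A match describes the letters only.

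The deposited values were log2 expression values per probe row, and their median per array lay between 6.55 and 6.66. Arrays correlated at 0.987 to 0.992 with each other across rows. For the labelled tissue, 3 of 8 hippocampal neuron markers stood below the median row, whereas 7 measured markers of cerebellar neurons had a median of 12.11, with Car8 of Purkinje cells at 12.44 and Gabra6 of cerebellar granule cells at 12.17. The summed level of the 7 cerebellar markers was 79.8 to 80.0 in ethanol and 79.1 to 79.6 in saline. That of 4 markers of all neurons was 45.9 in every ethanol array after rounding and 45.2 to 45.7 in saline, and that of 5 astrocyte markers was 52.4 to 53.1 in ethanol and 51.7 to 52.4 in saline. These 3 sums did not overlap between the groups, though the astrocyte sums parted only at 52.41 against 52.37. Of the 7 cerebellar markers 5 were higher in ethanol, with Neurod1 and Calb1 lower. The markers are mostly bright. Of 3058 genes of all kinds with a mean of 9 or above, 91.2% were higher and 12.3% were higher without overlap. The part of these sums in the differences below was not tested. The sums of the hippocampal, oligodendrocyte, microglial, endothelial and choroid plexus markers overlapped.

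More of the H/ACA and Cajal RNA genes were higher than lower in ethanol, but no single gene passed the test. Of the 31 genes, 27 were higher and 4 lower, and their median difference, ethanol minus saline, was 0.20 on the log2 scale with quartiles of 0.09 and 0.32. Over all 22180 genes, each likewise kept at its brightest row, 57.2% were higher and the median difference was 0.02. Over all rows, unnamed ones included, the share above 0 was 50.7% and the median difference was 0.00. With quantile normalization or cyclic loess, 24 of the 31 were higher. Differences ran from 0.57 for Snora34 to -0.23 for Snora75. The smallest adjusted p among them was 0.857 in limma, which called 0 of the 31 genes and 0 of 41345 rows (0%) at an adjusted p under 0.05. At an unadjusted p under 0.05 there were 2 genes, Snora73b and Snora30, both higher, where 5.54% of all rows passed that threshold, 1.97% higher and 3.57% lower. With quantile normalization or cyclic loess the count was again 2, but Snora19 took the place of Snora30 under that threshold. The groups did not overlap for 2 genes, Snora30 and Snora19, again both higher, against 5.06% of all rows higher and 6.01% lower. A count of 2 is 6.45% of the 31 genes, too few to set beside these shares as a difference.

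**Figure D1:**
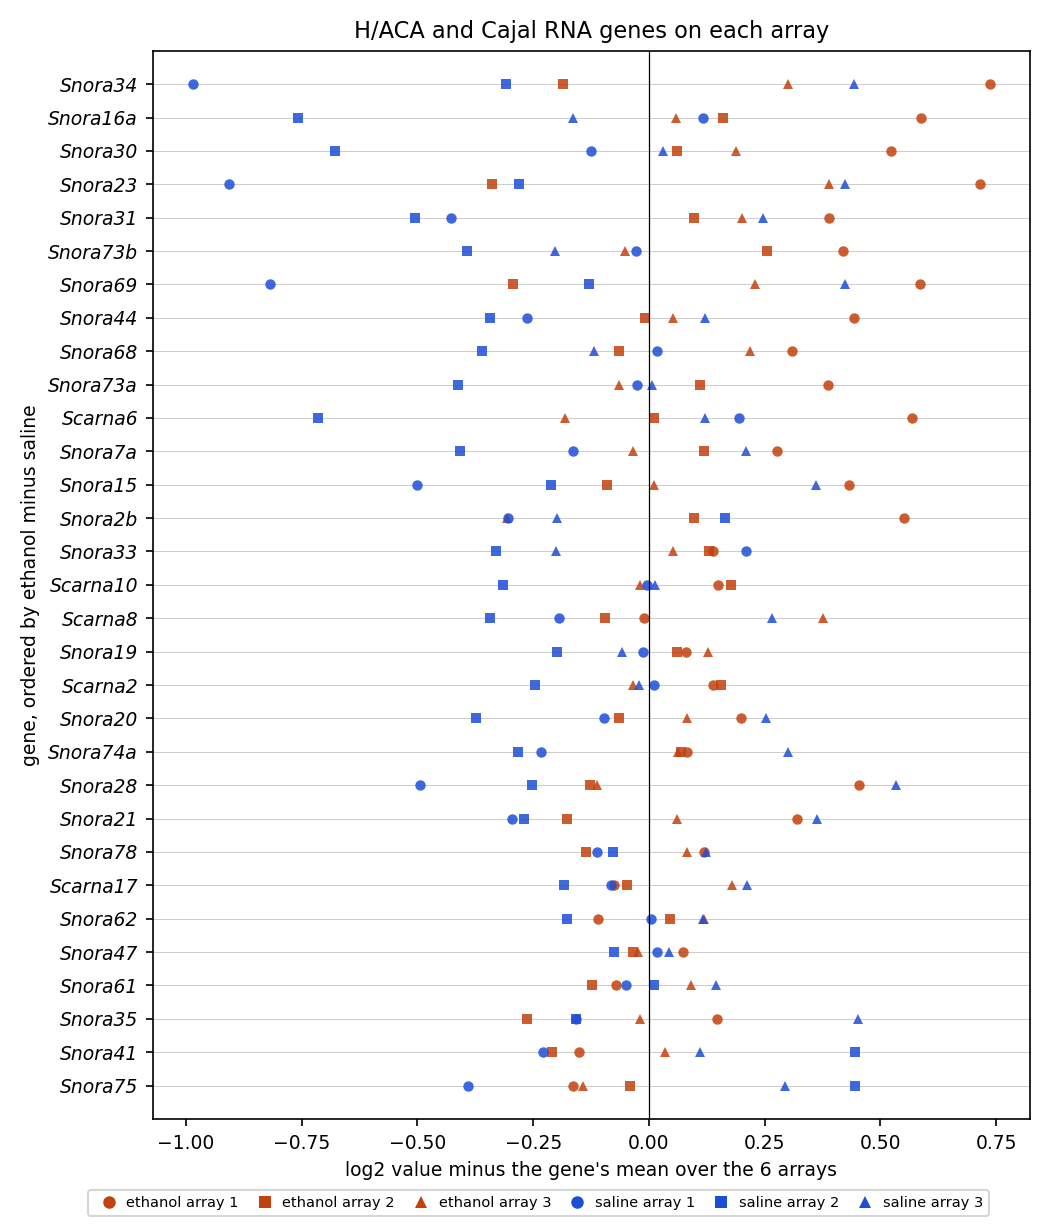
Each row is 1 of the 31 genes, ordered by its difference between the groups, and each point is 1 array, placed at its log2 value minus the gene's mean over the 6 arrays; orange is ethanol, blue is saline, and the shape gives the array number. Ethanol array 1 is the highest point for 15 genes and saline array 2 the lowest for 19, while the groups overlap in all genes but Snora30 and Snora19.

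The direction followed particular arrays within each group. Ethanol array 1 was the highest of the 6 arrays for 15 genes and the lowest for 0, and saline array 2 was the lowest for 19 and the highest for 2. Over all rows, ethanol array 1 was highest in 13.0% and saline array 2 lowest in 22.7%. Saline array 1 was the lowest for 8 more genes. Saline array 3, although a control, was the highest for 8 genes and stood above the gene's own mean for 24, beside 25 for ethanol array 1, 14 for ethanol array 2 and 20 for ethanol array 3. As deviations from each gene's mean, the medians over the 31 genes were 0.28, -0.03 and 0.06 in ethanol arrays 1 to 3 and -0.13, -0.28 and 0.12 in saline arrays 1 to 3. The medians of the groups overlapped, because saline array 3 lay above ethanol arrays 2 and 3.

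The C/D box small nucleolar RNA genes, the other large family of nuclear guide RNAs, had medians of 0.26, -0.01 and 0.10 in ethanol arrays 1 to 3 and -0.18, -0.22 and 0.16 in saline arrays 1 to 3. Both families thus had the same array highest and the same array lowest. Of the 47 C/D box genes, 39 were higher in ethanol, with a median difference of 0.25, where 57.2% of all genes were higher. The groups did not overlap for 8 of them, all higher, against 5.06% of all rows higher and 6.01% lower. The H/ACA and Cajal RNA genes were not tested against them. Genes of all kinds with a mean of 9 or above had another order, with medians of 0.03, 0.09 and 0.00 in ethanol and 0.01, -0.11 and -0.03 in saline, so that ethanol array 2 and not array 1 was highest there.

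**Figure D2:**
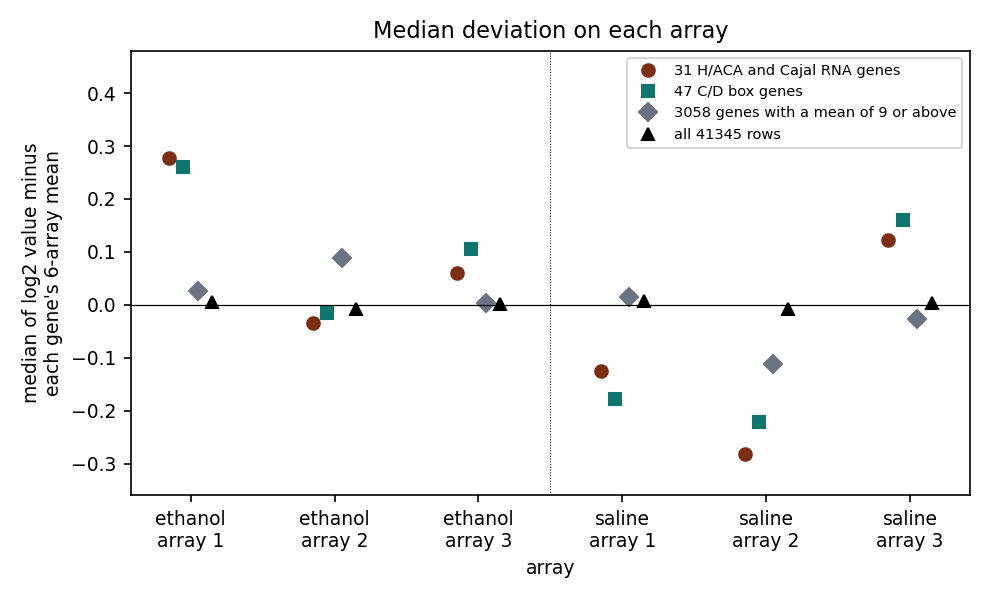
For each array, the points give the median, over the genes of a set, of the log2 value minus the gene's mean over the 6 arrays, for the 31 H/ACA and Cajal RNA genes, 47 C/D box genes, 3058 genes with a mean of 9 or above and all 41345 rows. Both small RNA families run from 0.28 and 0.26 in ethanol array 1 to -0.28 and -0.22 in saline array 2, and saline array 3 lies above ethanol arrays 2 and 3.

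How large the group difference was depended on which arrays were used. Without saline array 2 the median difference fell from 0.20 to 0.10 with 22 genes higher, and without saline array 1 it was 0.13 with 25 higher. Without ethanol array 1 it was 0.14 with 24 higher. Without saline array 3 it rose to 0.33 with 28 higher, and the groups then did not overlap, with ethanol higher, for 13 genes, against 11.5% of all rows in that set of arrays. Without ethanol array 3 the number was 7, against 10.6% of all rows, and without saline array 1 it was 6, against 14.1%. With ethanol array 1 and saline array 2 both left out, a setting chosen after seeing the data, the median was 0.03 with 21 of 31 higher. Genes at an unadjusted p under 0.05 and higher in ethanol numbered 0 without ethanol array 1, 0 without saline array 2 and 1 without ethanol array 3, where 1.56%, 2.04% and 1.83% of all rows were. They numbered 5 without saline array 1 and 8 without saline array 3, where 3.35% and 2.30% of all rows were. Genes lower at that threshold numbered 2 without saline array 1, Snora75 and Snora41, where 5.95% of all rows were.

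**Figure D3:**
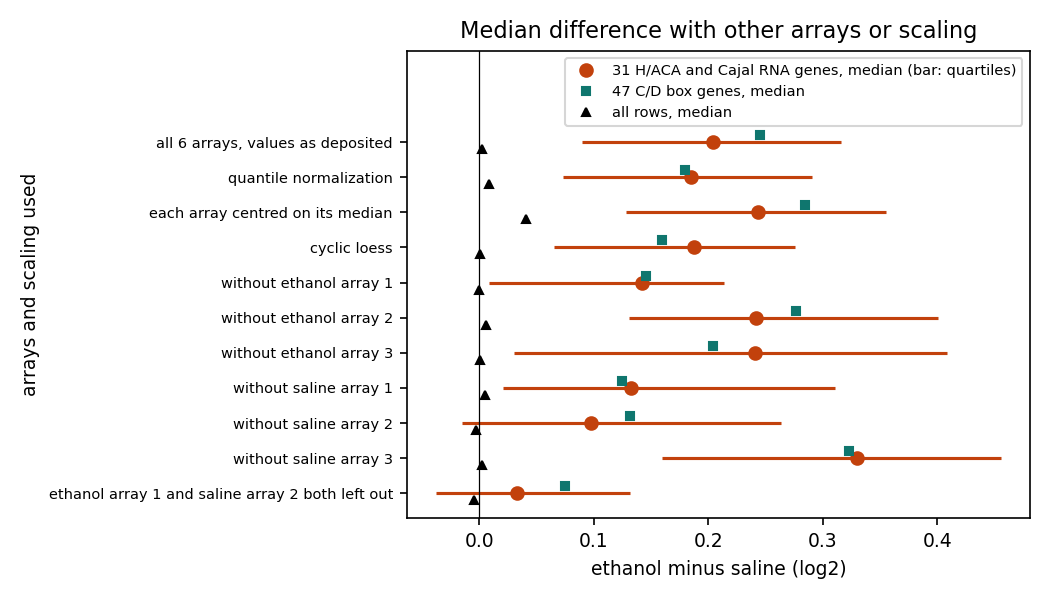
Each line is a choice of arrays or of scaling, and the points give the median difference, ethanol minus saline on the log2 scale, for the 31 H/ACA and Cajal RNA genes (bar: quartiles over genes), the 47 C/D box genes and all rows. The median of the 31 genes lies between 0.33 without saline array 3 and 0.03 with ethanol array 1 and saline array 2 both left out. The C/D box median lies between 0.32 and 0.08 in the same settings.

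Part of the direction was shared with genes of the same level. Of the 31 genes, 25 stood above the median row, and 13 had a mean of 9 or above, a value chosen after the levels were seen. All 13 were higher in ethanol, but so were 91.2% of the 3058 genes at that level. The sizes differed: the median difference was 0.27 for the 13 and 0.08 for those 3058 genes. Under a mean of 9, 14 of 18 were higher with a median of 0.14, against 51.8% of 19122 genes with a median of 0.00. Standard errors differed too, at a median of 0.17 for the 31 genes and 0.10 over all rows. The SD between arrays was larger in saline than in ethanol for 26 of the 31 genes, with medians of 0.31 and 0.20.

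**Figure D4:**
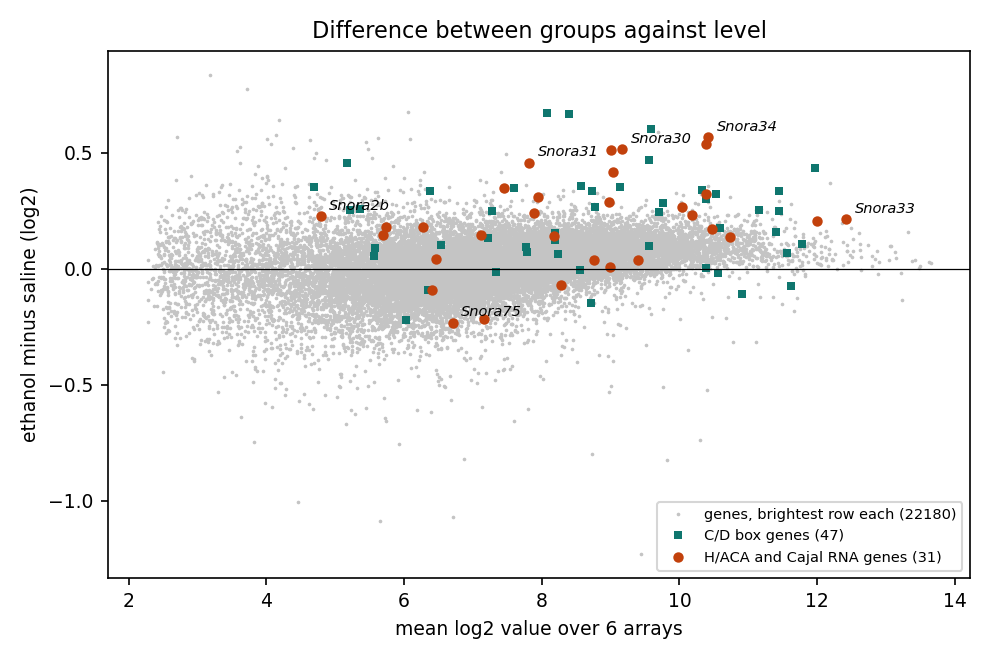
Each point is a gene, with its mean log2 value over the 6 arrays on the horizontal axis and the difference, ethanol minus saline, on the vertical axis; grey points are all 22180 genes, green squares the C/D box genes and orange points the H/ACA and Cajal RNA genes. The 13 orange points at a mean of 9 or above all lie above 0, where the median of all genes is 0.08.

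Among the RNAs that guide or process ribosomal RNA, Snora73b and Snora73a came from Snhg3. They are copies of U17, a box H/ACA RNA that acts in the cleavage of the ribosomal RNA precursor and not as a modification guide. Snora73b stood at 9.45, 9.29 and 8.98 in ethanol arrays 1 to 3 and at 9.01, 8.64 and 8.83 in saline arrays 1 to 3. Ethanol array 3 lay below saline array 1, so the groups overlapped. The difference was 0.42 ± 0.15 (SE, 3 arrays against 3; limma, unadjusted p = 0.027, adjusted p = 0.857).

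Snora73a stood at 9.37, 9.09 and 8.91 in ethanol and at 8.95, 8.57 and 8.98 in saline. Its arrays fell in nearly the same order, with ethanol array 1 highest and saline array 2 lowest for both copies, and it differed by 0.29 ± 0.16. The copies are near identical and their probes may bind both RNAs, so they are not independent. Snhg3 itself stood at 6.37, 6.58 and 6.39 in ethanol and at 6.34, 5.99 and 6.59 in saline, a difference of 0.14 ± 0.16. Its lowest array was also saline array 2, but its highest was saline array 3.

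Snhg12 holds 3 of the RNAs, and none of them passed the limma test. Snora16a stood at 10.97, 10.54 and 10.44 in ethanol and at 10.50, 9.62 and 10.22 in saline, a difference of 0.54 ± 0.24. Snora44 stood at 10.83, 10.38 and 10.44 in ethanol and at 10.12, 10.04 and 10.51 in saline, a difference of 0.32 ± 0.17. For both, ethanol array 1 was highest and saline array 2 lowest, and the groups overlapped.

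Snora61, the third, stood at 8.21, 8.15 and 8.37 in ethanol and at 8.23, 8.29 and 8.42 in saline, a difference of -0.07 ± 0.09. It had neither the high ethanol array 1 nor the low saline array 2. The host Snhg12 stood at 6.48, 6.55 and 6.56 in ethanol and at 6.73, 6.63 and 6.68 in saline. It was lower in every ethanol array than in any saline array, as were 6.01% of all rows. The difference was -0.15 ± 0.07 (limma, adjusted p = 0.857). Within an array, Snora16a exceeded Snhg12 by 4.12 ± 0.33 in ethanol and 3.43 ± 0.40 in saline (SD, n = 3; exact permutation test, two-sided, p = 0.1, adjusted p = 0.48 over 12 such contrasts). The gap from Snora44 to Snhg12 gave the same p-values in the exact permutation test, at 4.02 ± 0.29 and 3.55 ± 0.24, and 0.1 is the smallest p that 3 arrays against 3 allow. The gap from Snora16a to Snora61 was 2.41 ± 0.35 in ethanol and 1.80 ± 0.47 in saline (exact permutation test, p = 0.2, adjusted p = 0.48). With that limit, none of the 12 contrasts between RNAs that share a host, or between such an RNA and its host, could pass. Gaps between rows also carry the binding strength of the probes as well as the RNA.

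Snora34 and Snora2b both lie in Kansl2, which encodes a subunit of a histone acetyltransferase complex. With all 6 arrays, Snora34 had the largest difference of the 31 genes, 0.57 ± 0.38, and the widest range. Its difference was 0.22 without saline array 1, below the 0.73 of Snora16a, and 0.93 without saline array 3. Snora34 stood at 11.16, 10.23 and 10.72 in ethanol and at 9.43, 10.11 and 10.86 in saline. Saline array 1 was lowest by a wide margin and saline array 3 exceeded ethanol arrays 2 and 3. Snora2b, the dimmest of the 31 at a mean of 4.79, stood at 5.34, 4.89 and 4.49 in ethanol and at 4.49, 4.96 and 4.59 in saline, a difference of 0.23 ± 0.23. It did not follow Snora34: saline array 1 and ethanol array 3 were lowest together. The row kept for Kansl2 stood at 8.043, 8.125 and 8.003 in ethanol and at 7.905, 7.794 and 8.007 in saline, a difference of 0.15 ± 0.09. By its row number it lay far from the rows of Snora34 and Snora2b, so it may read another copy of the gene. Its position was not checked.

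Snora34 shared its order of arrays with RNAs on other chromosomes. Snora23, in the importin gene Ipo7, stood at 9.72, 8.66 and 9.39 in ethanol and at 8.09, 8.72 and 9.43 in saline. Snora69, in the ribosomal protein gene Rpl39, stood at 8.04, 7.16 and 7.69 in ethanol and at 6.64, 7.33 and 7.88 in saline. Snora15, in the chaperonin gene Cct6a, stood at 10.61, 10.09 and 10.19 in ethanol and at 9.68, 9.97 and 10.54 in saline. In these 4 genes ethanol array 1 was highest, then saline array 3, then ethanol array 3, and saline array 1 was lowest. The order does not separate the groups, and the differences of 0.51 ± 0.38, 0.35 ± 0.34 and 0.23 ± 0.24 for Snora23, Snora69 and Snora15 lay near or within their errors. It was found in 4 of 31 H/ACA and Cajal RNA genes, 8 of 47 C/D box genes and 86 of 41345 rows (0.208%). The order was noticed in the values, and these 3 genes, with Snora44 and Snora61, were chosen after their values were seen.

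Snora30 lies in Srcap, the gene of a chromatin remodelling ATPase. It stood at 9.69, 9.23 and 9.36 in ethanol and at 9.04, 8.49 and 9.20 in saline, so its groups did not overlap, though ethanol array 2 lay only just above saline array 3. The difference was 0.51 ± 0.21 (limma, unadjusted p = 0.041, adjusted p = 0.857). Srcap stood at 9.31, 9.23 and 9.36 in ethanol and at 9.23, 9.07 and 9.10 in saline, a difference of 0.17 ± 0.08.

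Snora19 lies in Eif3a, which encodes a subunit of a translation initiation factor. Snora19 stood at 5.81, 5.79 and 5.86 in ethanol and at 5.72, 5.53 and 5.67 in saline, again without overlap, a difference of 0.18 ± 0.08, beside 0.09 ± 0.08 for Eif3a. It was dim, and 2 rows named it with identical values on every array, so they count once. Snora20, in the chaperonin gene Tcp1 and close to it in level, stood at 5.89, 5.63 and 5.78 in ethanol and at 5.60, 5.32 and 5.95 in saline, with saline array 3 highest. Snora20 differed by 0.14 ± 0.16 and Tcp1 by 0.12 ± 0.08.

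At the bright end stood Snora33, in the ribosomal protein gene Rps12, at 12.56, 12.55 and 12.48 in ethanol and 12.63, 12.09 and 12.22 in saline. Saline array 1 was its highest array, and the difference was 0.21 ± 0.14, beside 0.08 ± 0.10 for Rps12. A second row that names Snora33 had a mean of 5.35 and a difference of 0.31 ± 0.15, in the same direction. Snora21, in the ribosomal protein gene Rpl23, stood at 11.05, 10.55 and 10.79 in ethanol and at 10.43, 10.46 and 11.09 in saline, with a difference of 0.13 ± 0.21. Values of different rows depend on how strongly their probes bind, so these levels do not rank the RNAs.

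The 5 Cajal body genes were all higher in ethanol on average, by 0.04 to 0.27, and their groups overlapped throughout. Scarna6, in the autophagy gene Atg16l1, stood at 10.61, 10.05 and 9.86 in ethanol and at 10.23, 9.33 and 10.16 in saline, a difference of 0.27 ± 0.29. That difference was -0.024 without saline array 2 and 0.048 without ethanol array 1. Scarna10, in the condensin gene Ncapd2, stood at 12.15, 12.17 and 11.98 in ethanol and at 11.99, 11.68 and 12.01 in saline, a difference of 0.20 ± 0.11. Scarna2, which guides methylation of the U2 spliceosomal RNA, stood at 10.62, 10.63 and 10.44 in ethanol and at 10.49, 10.23 and 10.45 in saline, a difference of 0.17 ± 0.10. Scarna10 and Scarna2 both had saline array 2 well below the other 5 arrays, which lay close together.

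Scarna8, in the augmin gene Haus6, stood at 6.26, 6.18 and 6.65 in ethanol and at 6.08, 5.93 and 6.54 in saline, a difference of 0.18 ± 0.19. Scarna17 stood at 9.32, 9.35 and 9.58 in ethanol and at 9.32, 9.21 and 9.61 in saline, a difference of 0.04 ± 0.13 that turned to -0.035 with quantile normalization and after cyclic loess. In both genes the number 3 array was the highest of its group. The other row that names Scarna17 had a mean of 8.38 and a difference of 0.02 ± 0.16. The hosts Atg16l1, Ncapd2 and Haus6 differed by 0.08 ± 0.08, 0.06 ± 0.08 and 0.07 ± 0.08.

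Lower values in ethanol were found for 4 genes, and none passed the test. Snora75, in the nucleolin gene Ncl, stood at 6.54, 6.67 and 6.57 in ethanol and at 6.32, 7.15 and 7.00 in saline, a difference of -0.23 ± 0.21. Snora41, in the elongation factor gene Eef1b2, stood at 7.01, 6.95 and 7.20 in ethanol and at 6.94, 7.61 and 7.27 in saline, a difference of -0.22 ± 0.17. For both, saline array 2, the lowest array for 19 of the 31 genes, was the highest and saline array 1 the lowest. Without saline array 1, Snora75 differed by -0.49 and Snora41 by -0.39 (limma, unadjusted p = 0.0020 and 0.029, adjusted p = 0.385 and 0.501). Without saline array 2 they differed by -0.068 and -0.050. Ncl differed by -0.02 ± 0.09 and Eef1b2 by 0.10 ± 0.08.

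Snora35, known from brain and choroid plexus, lies in Htr2c, the serotonin 2C receptor gene. It stood at 6.55, 6.14 and 6.38 in ethanol and at 6.25, 6.25 and 6.86 in saline, a difference of -0.09 ± 0.19. Htr2c stood at 8.25, 7.95 and 8.46 in ethanol and at 8.47, 7.90 and 8.24 in saline, a difference of 0.02 ± 0.18. The summed level of the 3 choroid plexus markers Ttr, Kl and Folr1, none of them near 0, was 29.5 to 31.1 in ethanol and 29.9 to 30.5 in saline, and its part in the values of Snora35 was not tested. Ethanol array 2 was the lowest array for Snora35 and next to lowest for Htr2c. The fourth lower gene was Snora61, given above.

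The remaining 8 genes, Snora7a, Snora28, Snora31, Snora47, Snora62, Snora68, Snora74a and Snora78, were higher on average by 0.01 to 0.46 with overlapping groups. The highest of these differences was that of Snora31, in Tpt1, and the lowest that of Snora47, in Zbed3. Snora47 also had the narrowest range over the 6 arrays of any of the 31 genes, 0.15, beside 1.72 for Snora34. A range above 1 was found for 7 genes, Snora34, Snora23, Snora69, Snora16a, Scarna6, Snora30 and Snora28.

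Host genes were set beside the RNAs they hold for the 27 pairs in which the host had a row of its own. The brightest row was kept for each host, and its position was not checked. By row number, the rows of Kansl2, Rpsa and Rpl39 lay far from those of their RNAs and may read other copies. Of the 23 hosts, 19 were higher in ethanol, with a median difference of 0.08 and a range from -0.15 to 0.23. Their median level was 9.22. Of all genes 57.2% were higher, and of the 3058 genes with a mean of 9 or above 91.2% were, with a median difference of 0.08. Both partners were higher in 19 pairs, and the signs were equal in 21 pairs. Most RNAs and most hosts were higher in any case, so these counts do not show that partners moved together. The difference of the small RNA gene was the larger in size in 24 pairs. The hosts varied less between arrays: their median SD was 0.07 in ethanol and 0.10 in saline, against 0.20 and 0.31 for the small RNA genes. Ipo7, host of Snora23, was the 1 host with an unadjusted p under 0.05, as 5.54% of all rows had. It stood at 9.88, 10.03 and 9.92 in ethanol and 9.66, 9.66 and 9.83 in saline, a difference of 0.23 ± 0.09 (limma, adjusted p = 0.857).

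By kind of host, the median difference of the small RNA genes was 0.29 for 7 with a noncoding host, 0.23 for 6 with a ribosomal protein host, 0.22 for 12 with another coding host and 0.16 for 4 with a translation factor or Tpt1 as host. The ranges overlapped, and no difference between the kinds was tested.

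**Figure D5:**
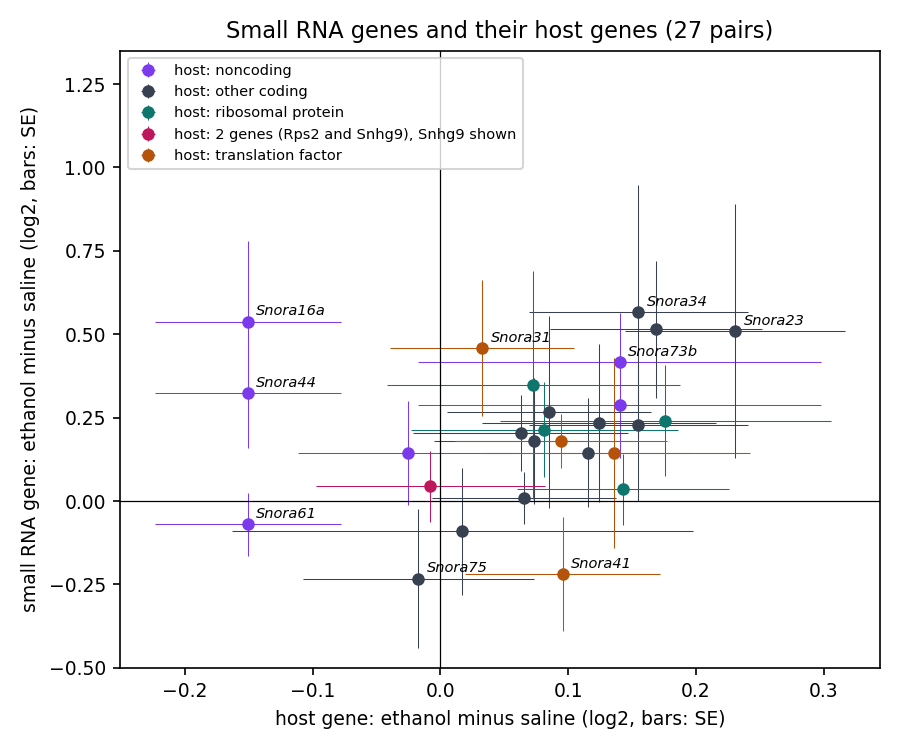
Each point is a small RNA gene and its host, with the host's difference, ethanol minus saline, on the horizontal axis and that of the small RNA gene on the vertical axis (log2; bars are SE of the limma fit), coloured by the kind of host. In 19 of the 27 pairs both values lie above 0; Snora16a and Snora44 lie above 0 with their host Snhg12 at -0.15.

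No gene of the proteins that build or use these RNAs passed the test. Of the 4 core proteins, all given here, the pseudouridine synthase Dkc1 stood at 8.11, 8.19 and 8.25 in ethanol and at 7.91, 7.97 and 8.17 in saline, a difference of 0.17 ± 0.09. Gar1 differed by 0.13 ± 0.07 and was higher without overlap, as were 5.06% of all rows. Nop10 differed by 0.11 ± 0.10 and Nhp2 by -0.09 ± 0.11. None of the 4 had an unadjusted p under 0.05. Neither did any of 8 listed assembly factors, a list not confined to factors of H/ACA RNAs. Of these 8, 6 were higher (median 0.06), with Ruvbl1, an ATPase, at 0.13 ± 0.08. Of 7 measured Cajal body genes 5 were higher (median 0.05), with the scaffold Coil at 0.11 ± 0.09. The 4 measured genes of trimming had a median of 0.04, with the polymerase Tent4b at 0.09 ± 0.08.

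Terc, the RNA of telomerase and itself of the H/ACA kind, differed by -0.05 ± 0.07. Of 11 genes of ribosomal RNA transcription 9 were higher (median 0.05), with the RNA polymerase I factor Taf1d at 0.28 ± 0.14. A list of 9 noncoding hosts of small nucleolar RNAs in general had 7 measured genes. Of these only Snhg12 and Snhg3 hold any of the genes described here. The 7 had a median of 0.02, with 4 higher and Snhg12 at the smallest p. Of the 4 genes whose symbol starts with Rnu, 2 had an unadjusted p under 0.05, as had 5.54% of all rows. They were Rnu5g, a very dim row at a mean of 3.17 that differed by 0.84 ± 0.17, and Rnu3a, which is the C/D box RNA U3, at 0.39 ± 0.15 (limma, adjusted p = 0.857 for both). The minor spliceosomal RNAs Rnu11 and Rnu12 differed by -0.12 ± 0.10 and -0.01 ± 0.09. The 3 measured core proteins of C/D box RNAs were higher (median 0.15), with Snu13 at 0.15 ± 0.10.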

How the data were processed

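Biotin-labelled targets were made from 200 ng of RNA, per the labels' protocols. The authors deposited log2 values, 1 column per array and 1 row per probe set; how they were background-corrected, summarized and normalized is not given in the sources used here. The log2 scale was read from the values. Per the submitters' processing notes the build was mm 10. Row names came from the platform annotation, under which 23521 rows named 1 gene, 1814 several and 16010 are unnamed here; positions and promoter windows came from RefSeq tables of GRCm38. All rows were fitted with limma 3.58.1 in R 4.3.3 (lmFit, eBayes, no filter, no covariate, two-sided, Benjamini-Hochberg over all rows), a script tested on simulated data. The fit had 4 residual and 2.94 prior degrees of freedom, and its SE is printed. The number of arrays limits the precision. The array was the replicate, so p-values speak of variation among pools.

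The genes and lists were chosen with earlier results of these data known. Genes named with every array were those at an unadjusted p under 0.05, those without overlap and a difference of at least 0.3, the 5 brightest and 3 dimmest, the 3 most different each way, those with 2 rows, all Scarna genes and both Snora73 copies, with their hosts; of each list, genes under 0.05 or else the smallest p. Alternatives covered scaling, prior, filters, array weights, the replicate block, the row kept and arrays left out.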

Additional observations from a re-analysis of the deposited data

How the results depend on the processing

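In limma 0 of the 31 genes were called in any setting run, nor at an adjusted p under 0.25 in the fit as reported; all rows gave 0 calls, except 1 without saline array 3 (0 to 1 leaving out 1 array). Genes with an unadjusted p under 0.05 and higher in ethanol, 2 as reported, numbered 6 with arrays centred on their medians, 5 with a trended prior, 5 among rows above the median brightness, 6 among rows naming 1 gene, 4 with array weights, 0 with ethanol array 1 and saline array 2 both left out, and 0 to 8 leaving out 1 array; lower, 0 to 2 leaving out 1 array. The shares of rows higher at that p in the first 6 of these settings were 3.08%, 2.20%, 2.63%, 2.04%, 2.10% and 1.83%. Centring made 62.3% of all rows higher, and the part of this shift in the 6 there was not tested. The median-brightness setting kept only 25 of the 31 genes, and the count rose there all the same. For none of these settings was the cause of the change in the count tested. Genes without overlap between groups, 2 higher as reported, numbered 1 with quantile normalization, 1 after cyclic loess, 1 among rows above the median brightness and 2 to 13 leaving out 1 array. Of all rows, 5.33% were so with quantile normalization, 4.95% after cyclic loess and 8.73% to 14.1% leaving out 1 array. Among rows above the median brightness the share was not counted. Genes lower without overlap numbered 2 with both those arrays left out and 0 to 2 leaving out 1. The share of all rows lower without overlap was not counted in these settings, so no reading is given to these counts. With both left out 14.1% of all rows were higher without overlap. The median difference, 0.20, was 0.19 with quantile normalization and after cyclic loess, 0.24 with centring, which raised the median of all rows to 0.04, and 0.10 to 0.33 leaving out 1 array.

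The sign turned for Scarna17 (-0.035 with quantile normalization and -0.035 after cyclic loess; -0.047 to 0.15 leaving out 1 array), Snora35 (-0.19 to 0.11), Scarna6 (-0.024 to 0.43; -0.24 with both arrays out), Snora20 (-0.0062 to 0.31; -0.070) and Snora21 (-0.092 with both out); for the other 18 named genes it held in the settings run. With the replicate number as a block, 5 genes had an unadjusted p under 0.05, all higher, as had 1.94% of rows; same-numbered arrays did not deviate together (r = 0.10, -0.06 and 0.04), so the numbers were not taken as a pairing.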
